A study of Mus musculus with 16 samples.

Results

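The genes described here are 10 that bring fatty acids into hepatocytes or join them to coenzyme A: the long-chain acyl-CoA synthetases *Acsl1*, *Acsl3*, *Acsl4* and *Acsl5*, the medium-chain synthetases *Acsm1* and *Acsm3*, the acetyl-CoA synthetase *Acss2*, the fatty acid transport proteins *Slc27a2* and *Slc27a5*, and the fatty acid translocase *Cd36*. They were taken by symbol from the 55450 genes of the expression table, in which all 10 were found, and all 10 passed the filter for testing. RNA came from primary hepatocytes of wild-type mice, which the study's methods describe as male C57BL/6J animals aged 8 to 12 weeks. The cells were cultured overnight in DMEM with fetal bovine serum and insulin-transferrin-selenium, a medium that all groups shared. They received nothing further (untreated), 10 mM sodium itaconate, a defined mixture of lipids at a 10-fold dilution, or itaconate and lipid together. The mixture holds arachidonic, linoleic, myristic, oleic, palmitic and stearic acids together with cholesterol, so that fatty acids and sterol were always given together. Each of the 4 groups had 4 libraries, named A to D, and each letter held 1 library of every group. The labels do not say whether a letter is 1 animal, 1 culture or 1 day, so the p values measure the spread between these libraries.

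A fatty acid must become an acyl-CoA thioester before a cell can oxidize it, store it as triglyceride or build it into phospholipid. Acyl-CoA synthetases carry out that step with ATP, and the families differ in the chain length they prefer: ACSL enzymes act on long chains, ACSM enzymes on medium chains, and ACSS2 on acetate in the cytosol and nucleus. SLC27A2 (FATP2) has both transport and very-long-chain synthetase activity, SLC27A5 (FATP5) is best known in the liver for joining bile acids to coenzyme A, and CD36 binds long-chain fatty acids at the cell surface. Itaconate is made from *cis*-aconitate in activated macrophages, and it was added here to ask how hepatocytes respond to it with and without a lipid load.

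Levels are given as CPM, the reads of a gene scaled to the size of its library after TMM normalization, and as CPM per kb of exon sequence where genes are compared with each other. Untreated libraries held 22346049 to 28619798 expected counts, those with itaconate 27211869 to 35512004, those with lipid 23562859 to 28558693 and those with both 25812579 to 35378517. The lowest count behind any value of the 10 genes was 149 reads, for *Acsm3*. Hepatocyte identity was checked with 12 marker genes, all of which were expressed, led by *Alb* with a mean of 33508 CPM over the 16 libraries. Among markers of other liver cells, *Krt7* and *Vwf* were near 0 and *Cftr* was at 0, while *Cd68* (mean 218 CPM), listed for macrophages, and *Spp1* (mean 529.9 CPM), listed for cholangiocytes, were well expressed. Of 10 endothelial markers 7 passed the filter for testing, led by *Stab1* (mean 11.9 CPM) and *Cdh5* (5.79 CPM). Of 8 stellate cell markers 1 passed, *Reln* (mean 20.2 CPM).

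In untreated hepatocytes the levels per kb of exon spanned a wide range, and *Slc27a5*, *Acsl5* and *Slc27a2* headed the order. *Slc27a5* stood at 118 ± 7.81 CPM per kb (SD, n = 4), *Acsl5* at 90.2 ± 4.91, *Slc27a2* at 50.3 ± 4.80, *Acsm1* at 24.6 ± 3.21, *Acsl4* at 22.8 ± 1.13, *Acsl3* at 11.3 ± 0.729, *Acsl1* at 5.08 ± 0.552, *Cd36* at 4.00 ± 0.877, *Acss2* at 3.88 ± 1.38 and *Acsm3* at 1.51 ± 0.326 CPM per kb. The libraries of neighbours in that order did not overlap, except for *Acsm1* with *Acsl4*, *Acsl1* with *Cd36*, and *Cd36* with *Acss2*. The order was the same in every other group, except that *Acss2* stood above *Cd36* in both groups with lipid, again with overlapping libraries. The levels of *Acsl1* and *Acss2*, and the order between them, depend on the length used. With the longest transcript in place of all exons, the untreated level of *Acsl1* was 9.37 and that of *Acss2* 10.9 CPM per kb. Both still lay between *Acsl3* (12.5 CPM per kb) and *Cd36* (4.23 CPM per kb) by that length.

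Lipid lowered the expression of most of these genes, whether itaconate was present or not. Between lipid-treated and untreated hepatocytes, 8 of the 10 genes fell and none rose in edgeR's quasi-likelihood test, called at an adjusted p under 0.05 among 11675 tested genes; *Acsl5* and *Acsm3* did not pass. Of all genes tested, 47.5% were called in this comparison and 23.7% were called lower. Between lipid + itaconate-treated and itaconate-treated hepatocytes, 8 of the 10 genes fell as well, with *Acsl5* and *Acsm3* again not passing, against 47% of all genes called and 23.5% called lower. These 2 comparisons share no library. Averaged over both, 9 of the 10 genes fell and *Acsm3* was not called (log2 fold change −0.19, adjusted p = 0.116), where 61.4% of all genes were called and 30.4% were called lower. On the log2 scale the median change of the 10 genes was −0.30 without itaconate and −0.36 with it, and that of all genes tested was 0.00 in both. In both comparisons *Acsl1*, *Acsl4* and *Slc27a2* were the 3 genes whose libraries did not overlap between the groups, where 32.5% of all genes without itaconate and 31.4% with it did not overlap in either direction.

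**Figure D1:**
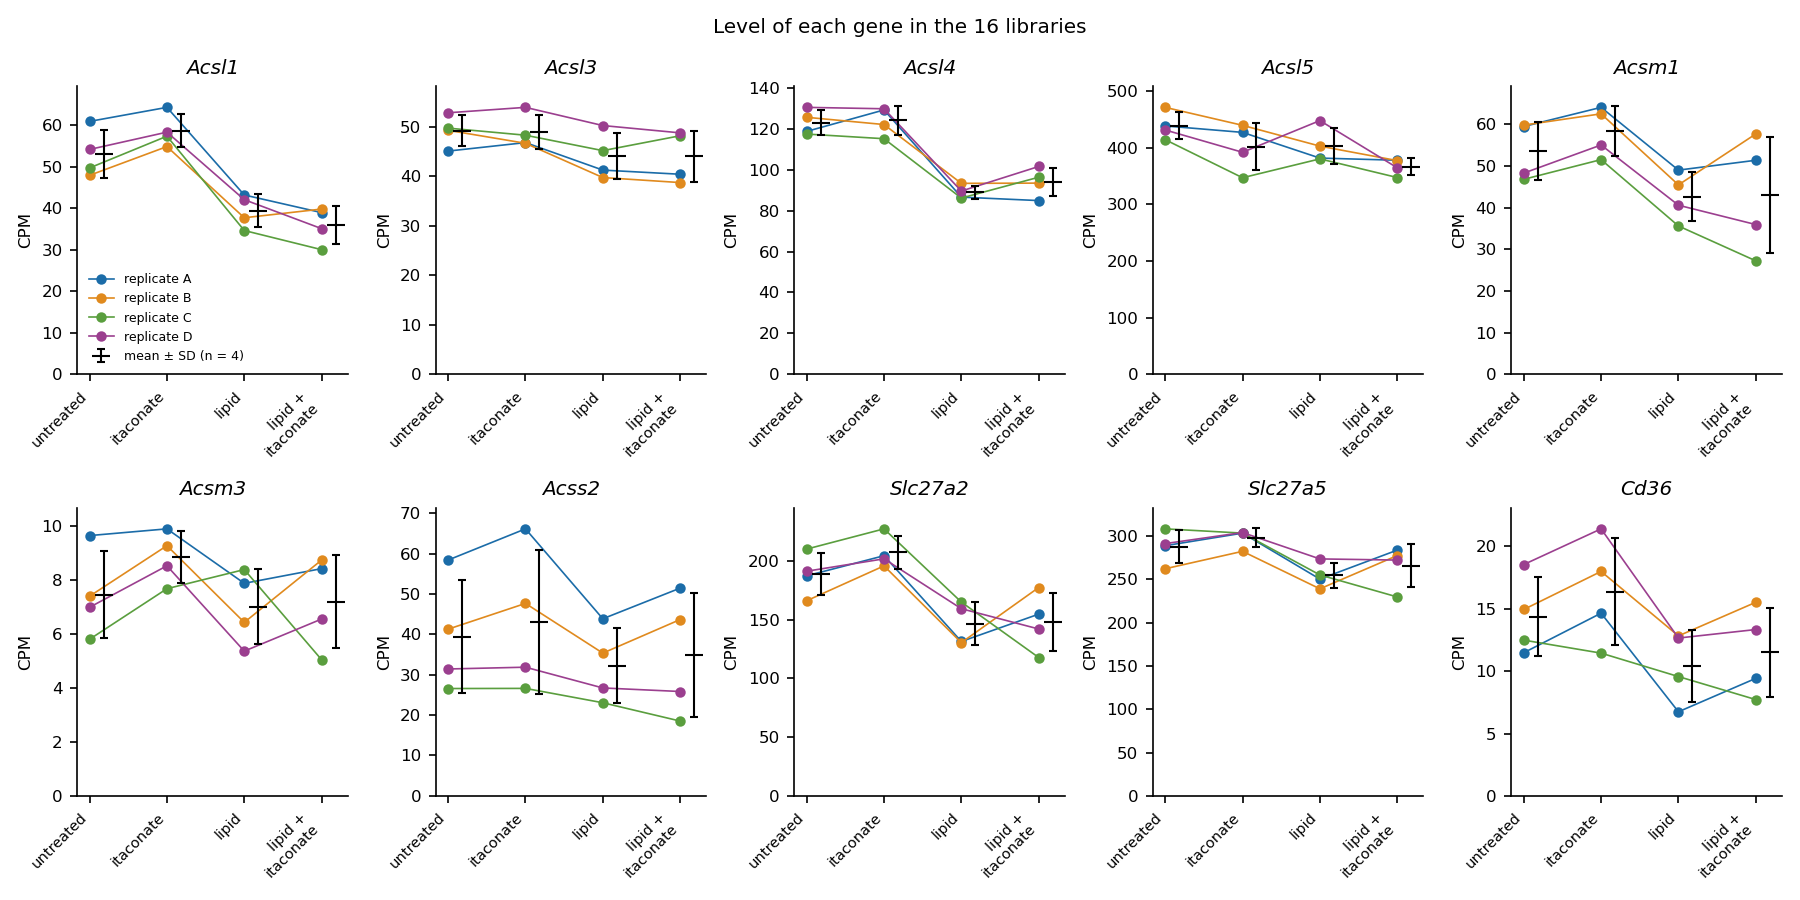
Level of each of the 10 genes in CPM (vertical axis, from 0) in the 4 groups (horizontal axis), with 1 line per replicate letter and the mean ± SD of 4 libraries in black. *Acsl1*, *Acsl4* and *Slc27a2* lie lower in every library with lipid than in any without it under the same itaconate condition, and the lines of *Acss2* stay apart by letter.

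These falls came with a lower sum of hepatocyte markers, most of it from *Alb* (mean 33508 CPM over the 16 libraries). The 12 markers added up to 47598 ± 6658 CPM (SD, n = 4) without treatment and 48889 ± 6630 CPM with itaconate, against 41874 ± 4687 CPM with lipid and 43516 ± 9030 CPM with both. In each lipid comparison 5 of the 12 were called lower and 1 higher, where 23.7% of all genes without itaconate and 23.5% with it were called lower. *Hnf4a*, a transcription factor that defines hepatocytes, was not called without itaconate (log2 fold change 0.11, adjusted p = 0.171) and was higher with it (0.21, adjusted p = 0.0143), while *Alb* was lower in both comparisons (−0.18 in each, adjusted p = 0.0142 and 0.0184). The sum of 6 cholangiocyte markers, nearly all of it from *Spp1* and *Sox9*, was 848 ± 246 CPM (SD, n = 4) without treatment, 761 ± 208 CPM with itaconate, 467 ± 123 CPM with lipid and 493 ± 119 CPM with both. With lipid alone *Spp1* fell by 0.97 and *Sox9* by 0.37 on the log2 scale (adjusted p = 5.39e-08 and 7.18e-05), while *Krt19*, *Krt7* and *Epcam* had means of at most 0.298 CPM over the 16 libraries. The part of the markers in the falls of the 10 genes was not tested. In bulk RNA, fewer cells of a type and less RNA per cell cannot be told apart. The replicate letter in the model decides several of these calls: without it, *Acsl1*, *Acsl4* and *Slc27a2* were called in each of the 2 comparisons (3 of 10 genes in each, against 35.5% and 34.2% of all genes), and 8 of 10 were called over both (52.1% of all genes). These 3 of 10 are no more than the share of all genes called in either direction. All 3 were called lower, as were 2030 of the 11675 genes without itaconate and 1883 with it.

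*Acsl1* encodes the main long-chain synthetase of liver, adipose tissue and heart, and *Acsl4* the member that prefers arachidonic acid. *Acsl1* (ENSMUSG00000018796.13, chromosome 8, 46471037 to 46536051 on the plus strand, GRCm38) was at 61.0, 48.0, 49.7 and 54.2 CPM in untreated replicates A to D, and at 43.2, 37.7, 34.7 and 42.1 CPM with lipid. With itaconate it was at 64.3, 54.9, 57.4 and 58.4 CPM, and with both at 39.0, 39.8, 30.0 and 35.1 CPM. Every library with lipid was below every library without it. It fell by 0.43 on the log2 scale without itaconate (standard error 0.065, adjusted p = 6.66e-05 in edgeR) and by 0.71 with it (standard error 0.064, adjusted p = 8.17e-07).

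*Acsl4* (ENSMUSG00000031278.12, chromosome X, 142317993 to 142390535 on the minus strand) was at 119, 126, 117 and 130.5 CPM in untreated replicates A to D and at 86.6, 93.3, 86.1 and 89.6 CPM with lipid. With itaconate it was at 129, 122, 115 and 129.8 CPM, and with both at 84.9, 93.4, 96.3 and 102 CPM. The groups did not overlap in either comparison, and the replicates lay close together. *Acsl4* fell by 0.47 on the log2 scale without itaconate (standard error 0.049, adjusted p = 2.34e-06 in edgeR) and by 0.40 with it (standard error 0.049, adjusted p = 1.20e-05).

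*Acsl3*, whose product sits on the endoplasmic reticulum and on growing lipid droplets, and *Acsl5*, whose product is found at mitochondria and the endoplasmic reticulum, moved less. *Acsl3* (ENSMUSG00000032883.15, chromosome 1) was at 45.1 to 52.8 CPM in untreated and 39.7 to 50.2 CPM in lipid-treated libraries, and it fell in 4 of 4 letters by 0.16 on the log2 scale (adjusted p = 0.0139 in edgeR). With itaconate present the fall was also 0.16 (adjusted p = 0.0173). Both calls were lost without a filter on low counts (adjusted p 0.0611 and 0.0582) and without the replicate letter (0.167 and 0.184). The first was also lost without untreated replicate B (0.0712) or lipid replicate B (0.0536), and the second without itaconate replicate A (0.0548) or lipid + itaconate replicate B (0.0694). *Acsl3* shares 5.60% of its exon bases with *Utp14b* on the same strand, and 87.5% of its expected counts were not whole, so its level rests on how RSEM divided reads.

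*Acsl5* (ENSMUSG00000024981.6, chromosome 19), the most abundant ACSL transcript here, was at 438, 471, 414 and 431 CPM in untreated replicates A to D and at 427, 439, 347 and 392 CPM with itaconate. With lipid it was at 382, 403, 380.2 and 448 CPM, and with both at 378, 377, 347 and 364 CPM. All 4 libraries with both treatments were below all 4 with lipid alone, by a narrow gap (378 against 380.2 CPM). Of all genes tested, 5.82% did not overlap in this comparison in either direction. The difference in *Acsl5* did not pass (adjusted p = 0.212 in edgeR). The lipid effect was −0.12 on the log2 scale without itaconate (adjusted p = 0.0823 in edgeR) and −0.13 with it (adjusted p = 0.0713). Without lipid replicate D, the only library in which *Acsl5* was higher than in its untreated partner, both passed (adjusted p = 0.0128 and 0.0417). The second also passed without itaconate replicate C (0.0349) and in DESeq2 (0.0350).

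**Figure D2:**
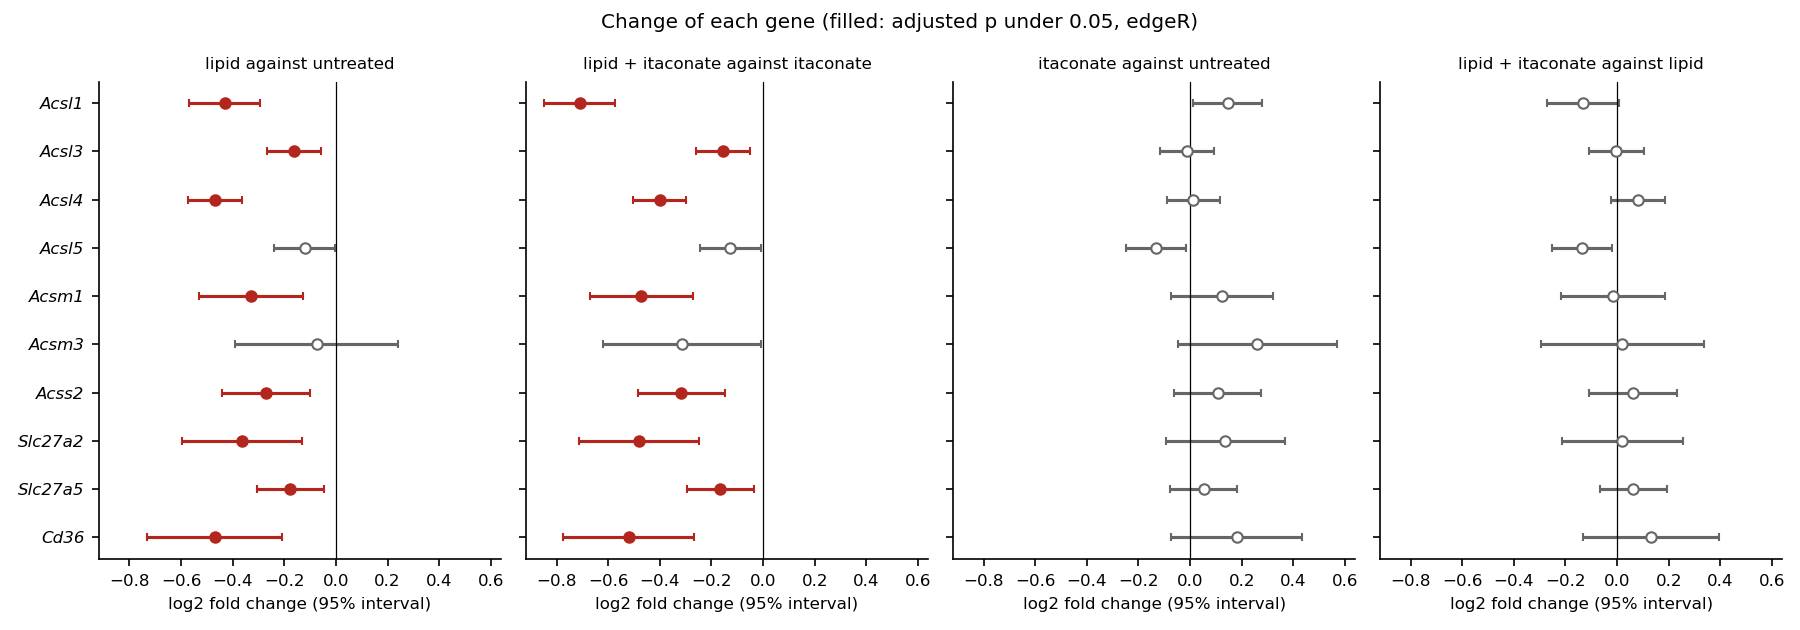
Log2 fold change (horizontal axis) of each of the 10 genes with its 95% interval from the edgeR model of 16 libraries, in 1 panel per comparison, with filled points for an adjusted p under 0.05. The 2 panels for lipid hold 8 filled points each, all left of 0, and the 2 panels for itaconate hold none.

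Because the 4 *Acsl* genes changed by different amounts, the make-up of the family was compared as well. Their summed level was 129 ± 5.35 CPM per kb (SD, n = 4) without treatment and 122 ± 9.21 CPM per kb with itaconate, and 113 ± 7.66 CPM per kb with lipid and 106 ± 2.26 CPM per kb with both. *Acsl5* made up 69.7% ± 1.33 of that sum in untreated cells and 73.2% ± 0.759 with lipid, *Acsl4* 17.6% ± 0.684 and 14.6% ± 0.848, and *Acsl3* 8.74% ± 0.646 and 8.94% ± 0.669. The share of *Acsl1* was 4.53%, 3.36%, 3.86% and 3.97% in untreated replicates A to D and 3.82%, 3.19%, 3.07% and 3.23% with lipid. It was 4.77%, 4.06%, 5.01% and 4.54% with itaconate and 3.49%, 3.53%, 2.78% and 3.09% with both. The libraries with both treatments thus lay below all those with itaconate alone. With the longest transcript as the length in place of all exons, the mean shares were 6.32%, 7.38%, 5.35% and 5.20% in untreated, itaconate, lipid and lipid + itaconate libraries.

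The difference in the *Acsl1* share between lipid + itaconate and itaconate was −1.37 percentage points (two-sided exact permutation test, p = 0.0286, the smallest that 70 reassignments of 8 libraries can give). After adjustment over the 4 comparisons of 2 groups it was 0.0762, so the difference did not pass. The difference was −0.61 points for lipid against untreated and 0.67 for itaconate against untreated (exact p = 0.0571 for each, adjusted p = 0.0762). For lipid + itaconate against lipid it was −0.10 points (exact p = 0.743). With libraries paired by letter, the share was lower with lipid in 4 of 4 letters in both comparisons, and the exact sign-flip test gave p = 0.125 for each, the smallest that 4 pairs allow.

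**Figure D3:**
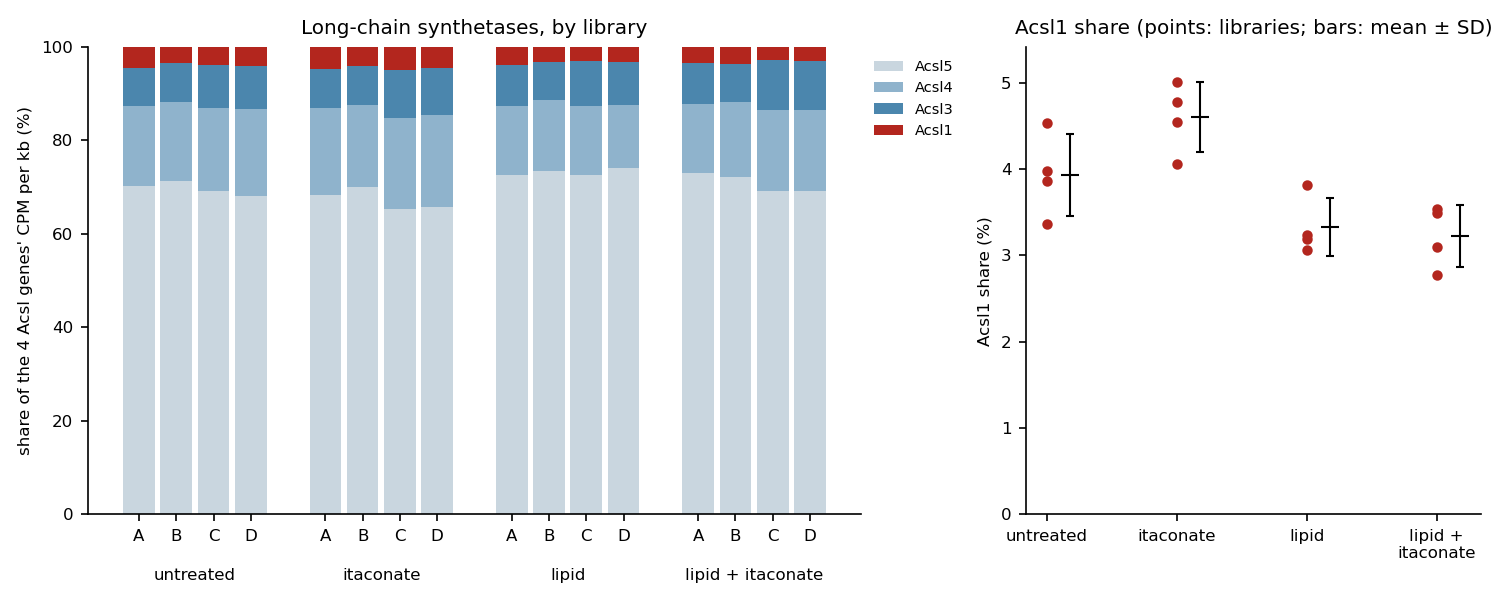
Left, share of each *Acsl* gene in the summed CPM per kb of the 4 genes (vertical axis, 0 to 100%) in each library A to D of the 4 groups. Right, the *Acsl1* share alone (vertical axis, from 0), with 1 point per library and the mean ± SD of 4 libraries; the 4 points with both treatments (2.78% to 3.53%) lie below the 4 with itaconate alone (4.06% to 5.01%).

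The start sites of *Acsl1*, *Acsl4* and *Cd36*, the 3 genes that fell most with lipid alone, are shown because the lipid mixture contained cholesterol and fatty acids, which are known to act on liver genes through SREBP2 and PPARα, factors that bind defined DNA elements. RefSeq promoters (GRCm38.p6) were found for all of the genes but *Slc27a5*, with 2 start sites for *Acsl1*, and were searched on both strands in windows of 300 bases. The motifs were a sterol element core (TCACNCCAC), a direct repeat of AGGTCA with 1 base between the copies (AGGTCANAGGTCA), the CCAAT box, and the GC box GGGCGG. Motif letters are in capitals in the runs below, which cover the 250 bases before each start site, read 5′ to 3′ on the strand of the gene.
Acsl1, upstream start site, chr8:46470787-46471036, plus strand: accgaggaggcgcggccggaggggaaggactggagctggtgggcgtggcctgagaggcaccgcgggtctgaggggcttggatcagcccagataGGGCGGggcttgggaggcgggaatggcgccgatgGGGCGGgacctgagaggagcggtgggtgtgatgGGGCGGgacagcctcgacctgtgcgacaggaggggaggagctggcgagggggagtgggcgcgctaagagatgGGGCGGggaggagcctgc
Acsl1, downstream start site, chr8:46490716-46490965, plus strand: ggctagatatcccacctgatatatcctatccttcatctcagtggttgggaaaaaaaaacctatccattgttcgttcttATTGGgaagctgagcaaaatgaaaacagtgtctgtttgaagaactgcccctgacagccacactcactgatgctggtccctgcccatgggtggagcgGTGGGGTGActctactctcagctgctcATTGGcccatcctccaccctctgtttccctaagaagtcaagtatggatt
Acsl4, chrX:142390536-142390785, minus strand: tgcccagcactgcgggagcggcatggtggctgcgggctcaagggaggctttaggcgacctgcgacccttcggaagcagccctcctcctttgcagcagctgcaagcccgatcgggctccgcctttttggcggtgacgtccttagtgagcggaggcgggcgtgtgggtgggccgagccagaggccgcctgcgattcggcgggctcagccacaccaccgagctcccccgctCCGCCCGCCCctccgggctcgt
Cd36, chr5:17835897-17836146, minus strand: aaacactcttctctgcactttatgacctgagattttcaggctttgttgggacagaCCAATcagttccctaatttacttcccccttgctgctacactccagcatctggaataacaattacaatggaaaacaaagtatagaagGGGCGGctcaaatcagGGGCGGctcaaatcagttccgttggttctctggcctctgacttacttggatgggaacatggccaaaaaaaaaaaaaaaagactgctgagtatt

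The sterol element core was found in 1 of the 10 promoters, at position −76 from the downstream start site of *Acsl1* as GTGGGGTGA, its reverse complement, and 1.24% of all 32851 promoters hold it. The direct repeat was in none of the 10, and in 0.0396% of all promoters. The CCAAT box was in 7 of the 10 (37.4% of all promoters) and the GC box in 6 of the 10 (35.7%). The upstream *Acsl1* promoter holds 7 GC boxes over its 300 bases and no CCAAT box, and the *Cd36* promoter holds 1 CCAAT and 2 GC boxes. The CCAAT box of *Acsl3* lies directly beside a GC box, and the 2 GC boxes of *Acsl4* overlap. The deposited counts are per gene and do not separate the 2 start sites of *Acsl1*, and a match in these windows describes letters, not binding.

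*Acsm1*, a mitochondrial medium-chain synthetase of liver and kidney, was at 59.5, 59.8, 46.8 and 48.3 CPM in untreated replicates A to D and at 49.0, 45.4, 35.6 and 40.6 CPM with lipid. With itaconate it was at 64.0, 62.5, 51.5 and 55.0 CPM, and with both at 51.4, 57.7, 27.2 and 35.9 CPM. Replicates A and B were above C and D in every group. Within letters the gene (ENSMUSG00000033533.14, chromosome 7, 119607026 to 119662515 on the plus strand) fell in 4 of 4, by 0.33 on the log2 scale without itaconate (standard error 0.095, adjusted p = 0.00958 in edgeR) and by 0.47 with it (standard error 0.094, adjusted p = 0.000830). The adjusted p was 0.159 and 0.0634 when the letter was left out of the model.

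*Acsm3* (ENSMUSG00000030935.15, chromosome 7), also a medium-chain synthetase, was the least abundant of the 10, at 5.81 to 9.65 CPM in untreated and 5.37 to 8.39 CPM in lipid-treated libraries. Its lipid effect was −0.07 on the log2 scale without itaconate (95% interval −0.39 to 0.24, adjusted p = 0.706 in edgeR) and −0.31 with it (adjusted p = 0.0863). Lipid replicate C, at 8.39 CPM, was the one lipid-treated library above its untreated partner, and without it the first value was −0.29 (adjusted p = 0.0544) and the second passed (adjusted p = 0.0173). The second also passed without lipid + itaconate replicate B (0.0331), without a filter (0.0299) and with only the 8 libraries compared (0.0456). *Acsm3* shares 39.7% of its exon bases with *Eri2* on the opposite strand, which was at 9.65 CPM before normalization. The library kit keeps strand, but the counting setting is not given in the sources used here. Of the expected counts of *Acsm3*, 0% were not whole, against 87.5% for *Acsl3*, which overlaps a gene on its own strand. The part of *Eri2* in the level of *Acsm3* was not tested.

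*Acss2*, which makes acetyl-CoA from acetate, differed more between letters than between treatments. It was at 58.4, 41.3, 26.6 and 31.4 CPM in untreated replicates A to D, at 66.1, 47.7, 26.6 and 31.9 CPM with itaconate, at 43.9, 35.4, 23.1 and 26.7 CPM with lipid and at 51.5, 43.7, 18.5 and 25.9 CPM with both. Replicate A was the highest and C the lowest in every group, and the means of the letters spanned 2.32-fold while those of the groups spanned 1.34-fold. Within letters *Acss2* (ENSMUSG00000027605.18, chromosome 2, 155517948 to 155585724 on the plus strand) fell with lipid in 4 of 4, by 0.27 on the log2 scale without itaconate (standard error 0.081, adjusted p = 0.0118 in edgeR) and by 0.32 with it (standard error 0.079, adjusted p = 0.00423). The first call was lost without lipid replicate A (adjusted p = 0.0594), and without the letter in the model the adjusted p was 0.533 and 0.511.

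Of the transport proteins, *Slc27a2* changed more than *Slc27a5*. *Slc27a2* (ENSMUSG00000027359.16, chromosome 2, 126552407 to 126588243 on the plus strand) was at 187, 166, 210.1 and 191 CPM in untreated replicates A to D and at 131, 130.4, 165 and 159 CPM with lipid. With itaconate it was at 204, 196, 227 and 202 CPM, and with both at 155, 177, 118 and 142 CPM. The highest library with lipid was below the lowest without it in both comparisons. It fell by 0.37 on the log2 scale without itaconate (standard error 0.109, adjusted p = 0.0122 in edgeR) and by 0.48 with it (standard error 0.109, adjusted p = 0.00215). The first call was lost without untreated replicate C (adjusted p = 0.0547).

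*Slc27a5* (ENSMUSG00000030382.15, chromosome 7, 12988346 to 12998192 on the minus strand) was at 289, 262, 308 and 291 CPM in untreated replicates A to D and at 250.4, 239, 255 and 274 CPM with lipid. With itaconate it was at 303, 282, 303 and 304 CPM, and with both at 284, 278, 229.8 and 272 CPM. It fell by 0.18 on the log2 scale without itaconate (standard error 0.061, adjusted p = 0.0267 in edgeR) and by 0.17 with it (standard error 0.061, adjusted p = 0.0363). The groups overlapped in both comparisons, and the calls were near the threshold. The first was lost without untreated replicate C (adjusted p = 0.130), lipid replicate A (0.0819) or lipid replicate B (0.0723). The second was lost without any one of itaconate A, C and D and lipid + itaconate C and D (0.0589 to 0.142), and with only the 8 libraries compared (0.0549).

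*Cd36* (ENSMUSG00000002944.15, chromosome 5, 17781690 to 17888801 on the minus strand) was at 11.5, 14.9, 12.5 and 18.6 CPM in untreated replicates A to D and at 6.74, 12.8, 9.57 and 12.7 CPM with lipid. With itaconate it was at 14.7, 18.0, 11.4 and 21.4 CPM, and with both at 9.42, 15.5, 7.72 and 13.3 CPM. Each letter was lower with lipid, although the groups overlapped. *Cd36* fell by 0.47 on the log2 scale without itaconate (standard error 0.12, adjusted p = 0.00543 in edgeR) and by 0.52 with it (standard error 0.12, adjusted p = 0.00242), and the adjusted p was 0.157 and 0.106 without the letter in the model. Macrophages and endothelial cells also express *Cd36*. The sum of 10 macrophage markers, most of it from *Cd68*, was 183 to 292 CPM without treatment, 162 to 248 CPM with itaconate, 234 to 331 CPM with lipid and 217 to 321 CPM with both. Of the 8 tested, *Cd68* rose with lipid alone (log2 fold change 0.43, adjusted p = 5.36e-06) while *Adgre1*, *Marco* and *Cd5l* fell by 0.82, 0.76 and 0.81 on the log2 scale, and with itaconate present 1 rose and 7 fell. Among all genes tested, 23.7% were called lower with lipid alone and 23.5% with itaconate present. The sum of 10 endothelial markers was 26.0 to 42.0 CPM without treatment, 22.1 to 32.2 CPM with itaconate, 35.1 to 42.5 CPM with lipid and 25.5 to 36.7 CPM with both. Of the 10, 7 were expressed enough to be tested, led by *Stab1* (mean 11.9 CPM), and *Vwf* was near 0. The part of these cells in the *Cd36* values was not tested.

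Itaconate alone changed none of the 10 genes in edgeR's test of all 16 libraries, where 4.91% of all genes were called. DESeq2 and limma-trend also called none, and 2 genes had an unadjusted p under 0.05: *Acsl1*, at 0.15 on the log2 scale (95% interval 0.01 to 0.28, adjusted p = 0.198), and *Acsl5*, at −0.13 (−0.25 to −0.01, adjusted p = 0.183). *Acsl1* was higher in 4 of 4 letters and *Acsl5* lower in 4 of 4. The estimate was above 0 for 8 of the 10 genes, with a median of 0.12 on the log2 scale. The intervals of the other genes leave room for changes of up to 0.57 (*Acsm3*) or 0.43 (*Cd36*). When the model held only the 8 untreated and itaconate-treated libraries, 4 genes passed: *Acsl1* (0.15, adjusted p = 0.0224), *Acsm1* (0.12, 0.0415) and *Slc27a2* (0.14, 0.0145) were higher and *Acsl5* (−0.13, 0.0255) was lower. That fit called 16.0% of all genes, so the count of the 10 rose along with calls in general.

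Among lipid-treated hepatocytes, itaconate likewise changed none of the 10 genes in edgeR, DESeq2 or limma-trend, where edgeR called 2.58% of all genes. The single gene with an unadjusted p under 0.05 was *Acsl5* (log2 fold change −0.14, standard error 0.055, adjusted p = 0.212), which was lower in 4 of 4 letters. Averaged over both itaconate comparisons, *Acsl5* was the only one of the 10 genes called, lower by 0.13 on the log2 scale (95% interval −0.22 to −0.05, adjusted p = 0.0362), where 12.3% of all genes were called and 6.57% were called lower. That call was lost without the replicate letter (adjusted p = 0.179) and without any of 10 libraries: untreated A, B or C, itaconate C or D, lipid C or D, and lipid + itaconate A, B or D (0.0540 to 0.0956). Without lipid replicate C, *Acsm3* was called (0.25, adjusted p = 0.0463). Without lipid + itaconate replicate C, 3 genes were called: *Acsl5*, *Slc27a2* (0.15, adjusted p = 0.0464) and *Slc27a5* (0.10, adjusted p = 0.0339), in a fit that called 21.6% of all genes. No hepatocyte marker was called in the averaged comparison, while *Cd68* (−0.17) and 3 of 7 tested endothelial markers, *Lyve1* (−0.73), *Kdr* (−0.54) and *Stab1* (−0.48), were lower; their part in the *Acsl5* value was not tested.

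The letters differed in how these genes stood with itaconate under lipid. In replicates A and B, 6 and 8 of the 10 genes were higher with both treatments than with lipid alone, and in C and D, 8 and 7 were lower. *Slc27a2* was higher by 0.24 and 0.44 on the log2 scale in A and B and lower by 0.49 and 0.17 in C and D. *Acss2* (0.23, 0.30, −0.32 and −0.05 in A to D), *Acsm1* (0.07, 0.34, −0.39 and −0.18) and *Slc27a5* (0.18, 0.21, −0.15 and −0.01) had the same signs by letter. The rest of the 10 genes did not. These were *Acsl1* (−0.15, 0.08, −0.21 and −0.26), *Acsl3* (−0.03, −0.04, 0.09 and −0.04), *Acsl4* (−0.03, 0.00, 0.16 and 0.18), *Acsm3* (0.10, 0.44, −0.73 and 0.29), *Cd36* (0.48, 0.28, −0.31 and 0.08) and *Acsl5*, which was lower in every letter. The sum of the 12 hepatocyte markers, most of it from *Alb*, had the signs of *Slc27a2* by letter. With lipid it was 48558, 41312, 37768 and 39860 CPM in A to D, and with both treatments 53914, 47430, 33299 and 39419 CPM. Lipid + itaconate replicate C, with the lowest marker sum, also had the highest mitochondrial share of counts, 6.01%, where the other 15 libraries had 3.27% to 4.97%. The part of these differences in the values of the 10 genes was not tested.

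**Figure D4:**
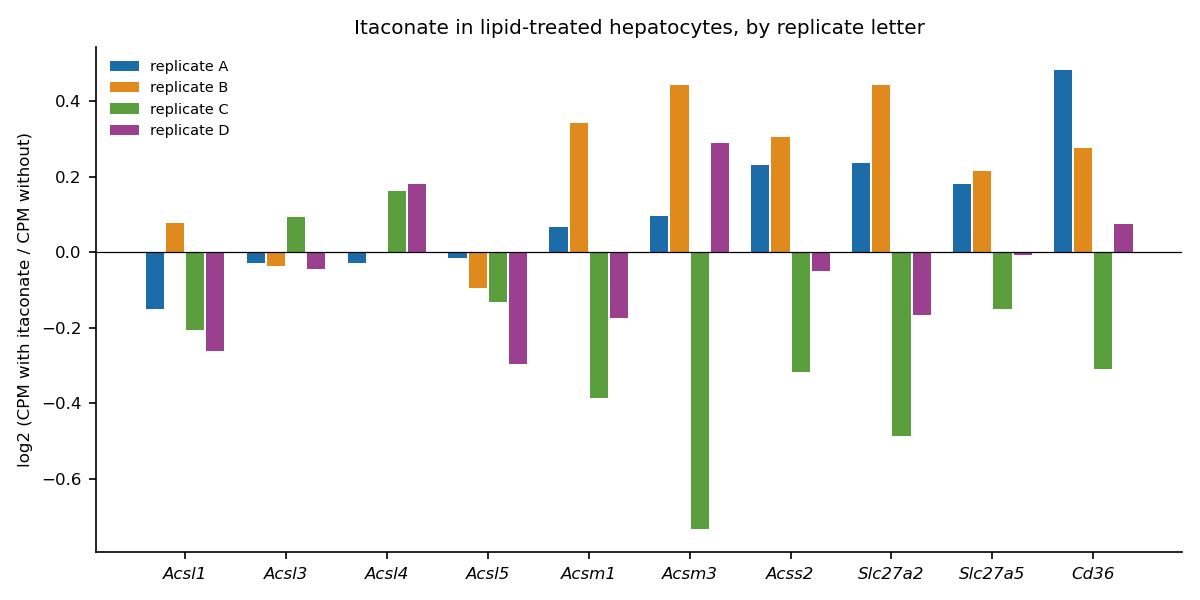
Log2 ratio of CPM with itaconate to CPM without it (vertical axis) in lipid-treated hepatocytes, with 1 bar per gene and replicate letter. The bars of *Acsm1*, *Acss2*, *Slc27a2* and *Slc27a5* point up in A and B and down in C and D, and those of *Acsl5* point down in all 4.

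Whether the itaconate effect differed with lipid was tested by the interaction term, which called none of the 10 genes in edgeR, DESeq2 or limma-trend. Of all genes tested, edgeR called 0.00857%, a single gene. The largest estimate was that of *Acsl1*, the one gene of the 10 with an unadjusted p under 0.05 (−0.28 on the log2 scale, standard error 0.091, 95% interval −0.47 to −0.09, unadjusted p = 0.00755, adjusted p = 0.385). *Acsl1* was higher with itaconate in 4 of 4 letters without lipid and lower in 3 of 4 letters with lipid, and its interaction was below 0 in 4 of 4 letters. The difference between the 2 lipid effects on *Acsl1*, falls of 0.43 and 0.71, is the same term, and it did not pass after adjustment.

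Genes near these in the pathway were followed in lists of other synthetases and transporters, of fatty acid and acyl-CoA binding proteins and of the first users of acyl-CoA. Against untreated cells, lipid called 47.5% of all genes tested, and 23.7% were called lower. Of 10 tested other synthetases and transporters, 1 rose with lipid, *Aacs*, which activates acetoacetate (log2 fold change 0.60, adjusted p = 0.000173 in edgeR), and 1 fell, *Slc27a4*, another fatty acid transport protein (−0.11, adjusted p = 0.0451). Their median was 0.07. Of 10 tested binding proteins, 5 fell, led by *Fabp5* (−0.46), *Dbi*, the acyl-CoA binding protein (−0.39), and *Fabp1*, the liver fatty acid binding protein (−0.35), and 1 rose, *Acbd4* (0.29), with a median of −0.22. Of 20 tested users, 10 fell, led by *Abcd2* (−1.37), *Cpt1a*, which commits acyl-CoA to mitochondrial oxidation (−0.49), and *Agpat5* (−0.43). Another 2 rose, among them *Mboat7* (0.23), and the median was −0.17.

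Genes known as targets of lipid-sensing transcription factors were counted in the same way, against the same 47.5% of all genes called and 23.7% called lower. Of 19 sterol synthesis and SREBP2 target genes, 16 fell with lipid, led by *Insig1*, the sterol-regulated retention factor of SREBP (−1.38), *Idi1* (−1.21) and *Lss* (−1.12), and *Dhcr7* rose (0.47), with a median of −0.63. Of 14 tested lipogenic genes, 8 fell, led by *Scd2* (−1.80), *Fads1* (−0.70) and *Srebf1* (−0.67), and *Acaca*, acetyl-CoA carboxylase (1.39), and *Mlxipl* (0.29) rose, with a median of −0.27. Of 19 tested PPARα targets, 12 fell, led by *Pdk4* (−1.34), *Angptl4* (−1.02) and *Plin2* (−0.85), and *Creb3l3* (1.06), *Cidec* (0.34) and *Acadm* (0.16) rose, with a median of −0.33. The median of −0.30 of the 10 genes lies among these medians, and above that of the sterol genes.

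With itaconate present, the same lists gave 1 higher and 1 lower (*Aacs* 0.33, *Acss3* −0.78), 6 lower binding proteins (*Fabp5* −0.45, *Fabp1* −0.42, *Dbi* −0.39), and 3 higher and 11 lower users of acyl-CoA (among them *Lpcat3* 0.42 and *Mboat7* 0.36; *Abcd2* −1.07, *Cpt1a* −0.46, *Gpam* −0.44). Of the sterol genes 15 were lower (*Insig1* −1.10, *Idi1* −1.09, *Lss* −0.86) and *Dhcr7* was higher (0.56). Lipogenic genes gave 9 lower (*Scd2* −1.62, *Fads1* −0.59, *Srebf1* −0.55) and 1 higher (*Acaca* 0.82), and PPARα targets 13 lower (*Pdk4* −1.09, *Angptl4* −0.85, *Ehhadh* −0.65) and 2 higher (*Creb3l3* 0.95, *Cidec* 0.33). In this comparison 47% of all genes tested were called and 23.5% were called lower.

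**Figure D5:**
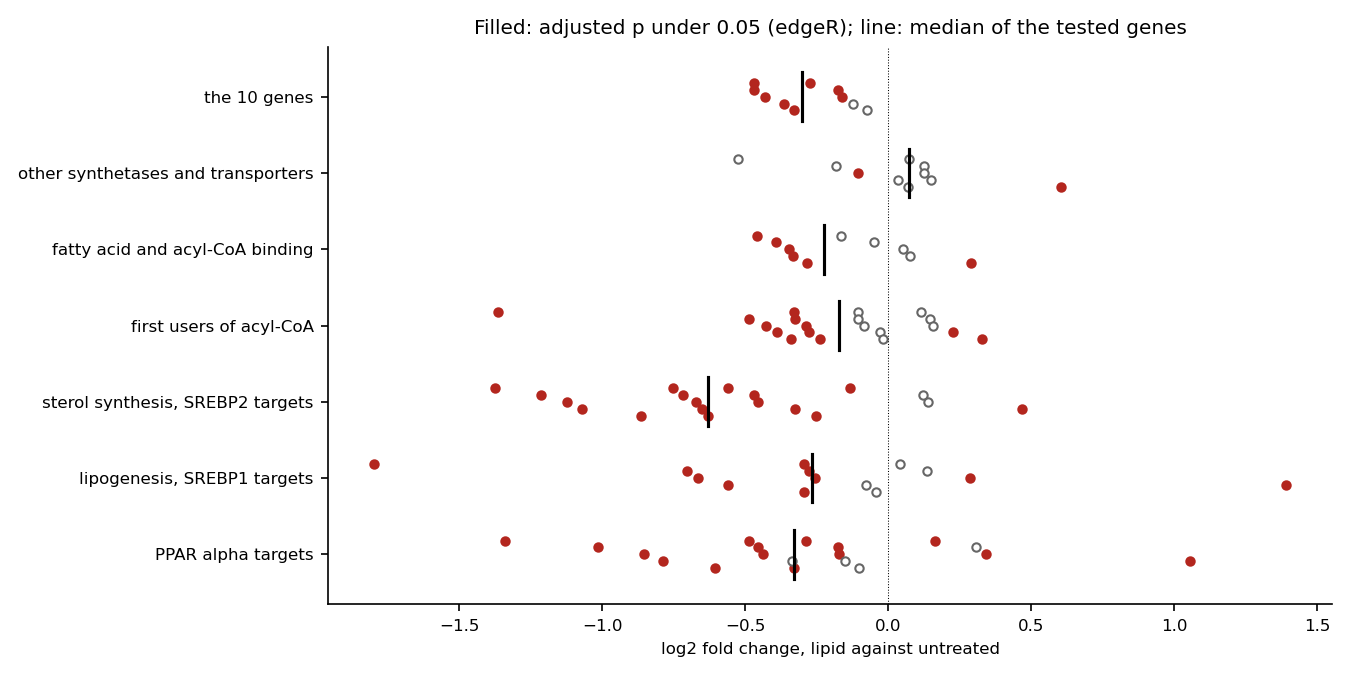
Log2 fold change with lipid against untreated (horizontal axis) for the tested genes of each list (1 row per list, points spread vertically for legibility), filled where the edgeR adjusted p was under 0.05, with the list's median as a black line. The medians run from −0.63 for sterol synthesis genes to 0.07 for other synthetases and transporters, with the 10 genes at −0.30.

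The lists were counted for itaconate as well, where 4.91% of all genes were called against untreated cells and 2.58% among lipid-treated cells. Against untreated cells, *Slc27a1*, a fatty acid transport protein, fell from 12.1 ± 1.69 to 8.49 ± 0.935 CPM (log2 fold change −0.51, adjusted p = 0.0346 in edgeR), the 1 change among 10 other synthetases and transporters. Also lower were *Hmgcs1* (−0.39), *Lss* (−0.35) and *Fdps* (−0.25) of the sterol genes, *Fads2* (−0.21) of the lipogenic genes and *Creb3l3* (−0.29) of the PPARα targets, and no binding protein or user of acyl-CoA was called. Among lipid-treated cells, *Agpat5* (0.31) and *Pdk4* (0.47) were higher and *Acaca* (−0.48), *Acly* (−0.26) and *Creb3l3* (−0.40) were lower with itaconate, and no gene of the transporter, binding or sterol lists was called. Averaged over both comparisons, where 12.3% of all genes were called, more genes of the lists passed and most were lower. These were 4 of 10 other synthetases and transporters (*Slc27a1* −0.38, *Mfsd2a* −0.23, *Aacs* −0.23 and *Acsf3* −0.21), 1 of 10 binding proteins (*Fabp5* −0.30), 7 of 19 sterol genes (led by *Mvd* −0.29, *Idi1* −0.28 and *Hmgcs1* −0.26) and 4 of 14 lipogenic genes (led by *Scd2* −0.44 and *Acly* −0.22). Of the users of acyl-CoA *Agpat2* was lower (−0.13) and *Agpat5* higher (0.22), and of the PPARα targets *Creb3l3* was lower (−0.34) and *Pdk4* higher (0.34).

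For those of the 10 genes that were called in a comparison of 2 groups, the most similar genes were sought. The measure was Pearson's r of log2 CPM over the 16 libraries, after the mean of each letter was subtracted. Candidates were 9311 genes outside the 10 whose mean reached 5 CPM, without placeholder symbols such as those in Gm or Rik. *Acsl5* and *Acsm3*, called in no such comparison, were left out. All points share the 4 treatments, so r is given as a description. *Slc27a2* was closest to *Fdx1* (r = 0.99), a mitochondrial ferredoxin, and also close to *Aldh1l1* (0.99), and *Slc27a5* was closest to *Ttc36*, *Fah* and *Cyp2d9* (0.98 each). *Acsl1* was closest to *Acmsd* (0.98), *Prep* (0.97) and *Aldh1a7* (0.97), *Acsl4* to *St6gal1*, *Klf3* and *Birc3* (0.98 each), and *Acsl3* to *Rfx7* (0.96), *Tnfrsf22* (0.95) and *Lpin1* (0.93). *Acsm1* was closest to *Aldh6a1*, *Nhlrc2* and *Rnf126* (0.97 each), *Acss2* to *Retreg1* (0.99), *Akr1d1* and *Nup50* (0.98 each), and *Cd36* to *Siah2* (0.97), *Rrs1* and *Cyp4a12a* (0.95 each). Among the 10 genes themselves r was highest between *Slc27a2* and *Acss2* (0.98) and between *Slc27a2* and *Acsm1* (0.97), and lowest between *Acsl5* and *Acsm3* (−0.03).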

How the data were processed

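Bulk RNA-seq was carried out on primary mouse hepatocytes in 16 libraries, 4 each of untreated, itaconate-treated, lipid-treated and lipid + itaconate-treated cells, grouped by the sample labels. The authors deposited RSEM expected counts per gene with no normalization, of which 5.41% are not whole. Per the submitters' processing notes and the methods, base calls were made with bcl2fastq 2.20, reads were trimmed with Cutadapt 1.18, aligned to mm10 with STAR 2.7.0f, and quantified with RSEM 1.3.1 (Picard 2.18.26 is also listed), and the strand setting is not given in the sources used here. The authors' later normalization, filter, removal of an unnamed batch and ANOVA were not used. The 10 genes and the gene lists, which come from general knowledge and no database, were chosen with earlier results of these data known.

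Expected counts were rounded and fitted in R 4.3.3 with edgeR 4.0.16: the 11675 genes whose mean reached 1 CPM, TMM normalization, a quasi-likelihood test in which 1 model of the 16 libraries held the group and the replicate letter, and Benjamini-Hochberg adjustment over all genes tested, with a threshold of 0.05. Depth was 22346049 to 35512004 expected counts per library, and intervals are 95%. The letter was kept because the study's methods remove a batch, which they do not name, with a linear model before testing. Same-letter libraries also deviated from their group means together: 24 correlations ran from 0.144 to 0.469, with a median of 0.263. Those of 72 pairs with other letters ran from −0.436 to 0.178, with a median of −0.114. Because group means were subtracted, positive values within letters push those between letters below 0, so the negative median is not separate evidence. CPM were divided by the union of exons in GENCODE mouse release 21 (GRCm38), in which all 55450 identifiers were found, for levels per kb. Log2 CPM used a prior count of 0.5. Shares were compared with exact permutation tests.

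Named genes are the 10, the 3 largest called rises and falls of each list in each comparison of 2 groups, and the 3 genes most like each of the 10 that was called in such a comparison. Genes of cell type markers and overlapping genes are named besides, those of the lists in the averaged itaconate comparison were chosen after their values were seen, and a few results that the rule would name are not reported here. Alternatives were no replicate letter, RLE normalization, the filterByExpr filter, no filter, DESeq2 1.42.0, limma-trend (limma 3.58.1), only the 8 libraries compared, each library left out and, for shares, the longest transcript as the length and a sign-flip test. Protein sequences were not used here.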

Additional observations from a re-analysis of the deposited data

Results flagged for a closer look

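A single value among the 10 genes stood far from the rest of its group. *Slc27a5* in itaconate replicate B was at 282 CPM, while the other 3 itaconate libraries lay between 303 and 304 CPM. Its gap to the nearest was 0.969 of the range of the group, over Dixon's 95% critical value for 4 samples. Replicate B was also the lowest letter for *Slc27a5* in untreated and lipid-treated hepatocytes. Over the 44 groups of 4 checked (the 10 genes and the *Acsl1* share, in 4 treatments), chance alone flags about 1 in 20.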

How the results depend on the processing

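The letters pair the libraries, and leaving the replicate block out of the model reduced the genes called with lipid from 8 to 3 without itaconate (47.5% to 35.5% of all genes) and from 8 to 3 with it (47% to 34.2%), and those called for itaconate averaged over lipid from 1 to 0 (12.3% to 1.88%). When the model held just the 8 libraries compared, the genes called with itaconate alone rose from 0 to 4, while the share of all genes called rose from 4.91% to 16.0%. Under RLE normalization, filterByExpr, no filter, DESeq2 and limma-trend, the number of genes called stayed within 1.5 times the main one in each of the 7 comparisons (7 to 8 for lipid against untreated, 8 to 9 for lipid + itaconate against itaconate). Of all genes, these fits called 22.4% to 47.6% for lipid against untreated and 22.2% to 47.1% for lipid + itaconate against itaconate. With 1 library left out, the number of the 10 genes called ran from 6 to 9 in both lipid comparisons. The share of all genes then ran from 40.4% to 51.4% without itaconate and from 38.8% to 47.6% with it. For itaconate averaged over lipid, 0 to 3 of the 10 genes were called, against 7.67% to 21.6% of all genes. Over all alternatives *Acsl1* and *Acsl4* were called lower with lipid in every one of the 23 fits of each lipid comparison, and no gene of the 10 changed sign there except *Acsm3* (−0.29 to 0.022 with 1 library left out, lipid against untreated).

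Signs changed for estimates near 0. On the log2 scale, with 1 library left out, the effect of itaconate alone ran from −0.031 to 0.035 for *Acsl3* and from −0.030 to 0.039 for *Acsl4*. With lipid it ran from −0.046 to 0.030 for *Acsl3*, −0.14 to 0.10 for *Acsm1*, −0.090 to 0.23 for *Acsm3*, −0.028 to 0.15 for *Acss2* and −0.13 to 0.17 for *Slc27a2*, and averaged over lipid from −0.036 to 0.031 for *Acsl1*, −0.028 to 0.016 for *Acsl3* and −0.0069 to 0.11 for *Acsm1*. The interaction ran from −0.039 to 0.035 for *Acsl3*, −0.054 to 0.055 for *Acsl5*, −0.14 to 0.036 for *Acss2*, −0.16 to 0.046 for *Cd36*, −0.27 to 0.030 for *Slc27a2* and −0.051 to 0.089 for *Slc27a5*. The *Acsl1* share in lipid + itaconate against lipid ran from −0.20 to 0.061 percentage points. The effect of itaconate with lipid on *Acsm1* was 0.014 without the replicate block, and the *Acsl3* interaction was −0.00039 without a filter. The ends of the ranges with lipid came from leaving out lipid + itaconate replicate B or C, except the upper ends for *Acsm3* (lipid replicate C) and for the *Acsl1* share (lipid replicate A). The causes were not tested.

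Over all genes, itaconate alone called 573 genes, 23 without the replicate block, 1091 without a filter, 1865 with just the 8 libraries, and 149 to 1047 with 1 library left out. With lipid it called 301, and 9, 725, 13 and 59 to 889 in the same settings, and 512 with DESeq2. Averaged over lipid it called 1432, and 219 without the block and 895 to 2528 with 1 library left out. The interaction called 1, and 231 without a filter, 36 with DESeq2 and 0 to 8 with 1 library left out. *Acsm3*, with 149 to 296 reads per library, is the gene whose precision depth limits most.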
